A study of Mus musculus with 24 samples.

Results

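The nuclear genes of respiratory complexes I, II and III and of ATP synthase (complex V) were followed across C2C12 cells with and without NFIA and across brown adipose tissue of neonatal mice. Members were all genes whose symbol begins with Nduf followed by a, b, c, s or v, with Uqcr or with Atp5, together with Sdha, Sdhb, Sdhc and Sdhd. The rule gave 73 of the 37041 genes in the files, and all 73 reached 1 FPKM (fragments per kilobase of transcript and library depth) in at least 3 of the 24 libraries. They comprise 36 complex I subunits, 4 complex I assembly factors (Ndufaf1 to Ndufaf4), the related pair Ndufa4 and Ndufa4l2, 4 complex II genes, 8 complex III genes, 15 complex V subunit genes and 4 further Atp5 symbols. Among the last 4, Atp5l-ps1 and Atp5l2 are annotated as processed pseudogenes close in sequence to Atp5l, so reads could be divided among them and their values are uncertain. Cyc1 and the subunits encoded in mitochondrial DNA are not covered by the rule.

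RNA-seq of polyadenylated RNA was available for 8 groups of 3 libraries. C2C12, a mouse myoblast line, was analysed as NFIA-expressing cells and control cells at day 0 of differentiation and at day 7, and the day 7 cells also with forskolin, which raises cAMP, given at 10 µM for 4 h. The tissue groups were brown adipose tissue labelled NFIA-KO and brown adipose tissue labelled wild type (WT), both from neonates. The labels used here give neither the vector behind NFIA in the cells, nor the knockout allele, the strain, the number of animals per library or an age beyond neonate, so the p-values measure only the spread between these libraries, which may be technical.

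Complex I takes electrons from NADH, complex II takes them from succinate as part of the citric acid cycle, and complex III passes them on to cytochrome c. Complexes I and III pump protons, and ATP synthase lets protons return through a ring of c subunits and makes ATP. In brown adipocytes UCP1 gives protons another way back, so that the energy appears as heat, and the tissue is known for abundant respiratory chain with little ATP synthase beside it. The c subunit is encoded by Atp5g1, Atp5g2 and Atp5g3, whose mature proteins are the same, and low Atp5g1 expression is known to limit the amount of synthase in brown fat.

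Upstream sequences are shown for the c subunit genes, because they went the opposite way from most members between tissue and cells, and for Ndufaf4, a complex I assembly factor that had the largest called change of any member with at least 5 FPKM in both NFIA comparisons at day 7 and in the tissue. They are the stretches ahead of the annotated start of each gene in RefSeq (GRCm38.p6, gene strand, 5′ to 3′), cut where an annotated exon begins. They lie at chr11:96075671-96075881, minus strand (Atp5g1), chr15:102671128-102671297, minus strand (Atp5g2), chr2:73911327-73911576, minus strand (Atp5g3), and chr4:24897833-24898082, plus strand (Ndufaf4). The annotated start lies at 96075631 for Atp5g1 and at 102671047 for Atp5g2. For these genes the bases next to the start are therefore not shown, whereas the stretches of Atp5g3 and Ndufaf4 reach it. Capitals mark matches to the motifs counted further on: the ERR half-site AAGGTCA, read on the other strand, in Atp5g3, and the NRF1 site and overlapping GC boxes (GGGCGG) in Ndufaf4.
Atp5g1: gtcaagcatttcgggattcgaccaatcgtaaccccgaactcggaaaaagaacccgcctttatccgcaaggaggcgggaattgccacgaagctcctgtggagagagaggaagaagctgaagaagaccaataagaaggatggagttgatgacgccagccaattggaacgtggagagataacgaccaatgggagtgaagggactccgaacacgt
Atp5g2: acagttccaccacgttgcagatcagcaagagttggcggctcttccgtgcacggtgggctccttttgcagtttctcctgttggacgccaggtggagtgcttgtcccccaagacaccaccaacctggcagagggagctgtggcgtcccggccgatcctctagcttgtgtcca
Atp5g3: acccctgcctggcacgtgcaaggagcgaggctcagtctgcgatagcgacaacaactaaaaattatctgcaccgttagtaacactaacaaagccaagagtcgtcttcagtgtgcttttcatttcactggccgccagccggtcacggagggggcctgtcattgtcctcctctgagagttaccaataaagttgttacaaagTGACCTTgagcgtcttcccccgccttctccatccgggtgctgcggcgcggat
Ndufaf4: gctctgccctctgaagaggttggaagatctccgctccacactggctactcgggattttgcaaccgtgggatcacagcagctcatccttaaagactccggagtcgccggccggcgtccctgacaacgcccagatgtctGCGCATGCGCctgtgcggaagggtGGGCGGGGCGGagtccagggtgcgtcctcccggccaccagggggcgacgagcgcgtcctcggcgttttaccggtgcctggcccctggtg
None of the searched motifs occurs in the stretches shown for Atp5g1 and Atp5g2, which says only that these letters are not there. The longer RefSeq window of Atp5g2, which includes bases not shown here, holds an NRF1 motif and a GC box, and that of Atp5g3 an NRF1 motif, while that of Atp5g1 holds none of the motifs.

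A RefSeq promoter window, from 250 bases before to 50 bases after the start, was available for 61 of the 73 members and for 27025 genes in all. Searched on both strands, the NRF1 motif (GCGCA and GCGC around 1 base of any kind) stood in 17 member windows (27.9%, against 5.19% of all windows), and the ETS motif CCGGAAG, as bound by GABPA, in 14 (23.0% against 9.93%). The YY1 motif AAGATGGC stood in 11 (18% against 3.19%), the ERR half-site AAGGTCA in 8 (13.1% against 5.38%) and the cAMP response element TGACGTCA in 4 (6.56% against 2.03%). The palindromic NFI motif (TTGGC and GCCAA around 5 bases of any kind) was in 0 member windows and in 0.0444% of all windows. The GC box GGGCGG, which can overlap the other GC-rich motifs, was in 27 member windows (44.3% against 38.2%).

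The FPKM sum per library ran between 762822 and 1575522 and read depth is unknown, since the tables hold no counts. Nfia followed the cell labels, at 3343 ± 212 FPKM in NFIA cells and 1.33 ± 0.785 FPKM in control cells at day 7 (SD, n = 3 each). Its level in NFIA cells was not constant, at 1269 ± 15.6 FPKM at day 0 and 9852 ± 608 FPKM at day 7 with forskolin. Comparisons over time and with forskolin in these cells, and both interactions, thus also span Nfia levels, whose part was not tested. In the tissue Nfia did not follow the labels. It stood at 39.4 to 44.6 FPKM in the libraries labelled NFIA-KO and at 24.3 to 32.8 FPKM in WT libraries. Whether the deleted part of the gene is among the bases counted was not analysed here. Marker genes separated the groups: the summed FPKM of 6 adipocyte genes was 23202 to 25467 in NFIA cells at day 7 and 86.6 to 88.4 in control cells, whereas that of 10 skeletal muscle genes was 2986 to 4123 in NFIA cells and 27598 to 28636 in control cells. The summed FPKM of 6 brown adipocyte genes was 279.4 to 513.9 in NFIA cells and 65.4 to 124.2 in control cells at day 7. On average most of both sums came from Cox8b, also known as a muscle isoform, whose levels are given further on. Of the 6 genes, 5 were counted at 1 FPKM or more in NFIA cells and 2 in control cells. Ucp1, which is among these 6, was near absent, at 0.01 to 0.13 FPKM in NFIA cells and 0 in every control library at day 7. In the tissue 6 brown adipocyte genes summed to 4696 to 5852 FPKM in libraries labelled NFIA-KO and 9798 to 13585 FPKM in WT libraries, and Ucp1 alone stood at 1445 to 1674 FPKM in libraries labelled NFIA-KO and 4073 to 7240 FPKM in WT libraries. Skeletal muscle genes were present in both tissue groups, at 326.8 to 2073 FPKM in libraries labelled NFIA-KO and 64.2 to 153.5 FPKM in WT libraries, and Fabp4 was listed at 0 in WT replicate 3.

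The C2C12 libraries fall into 2 sets by the date in their file headers. In each cell group replicate 1 carries the earlier date and replicates 2 and 3 the later one, and all tissue libraries carry the earlier date. The earlier library was below the mean of the later ones for 65 to 72 of the 73 members, depending on the group. The median member difference on the log2 scale was −0.32 in NFIA cells and −0.71 in control cells at day 0, with the other groups between them, while the median over all genes lay between −0.12 and −0.02. The gap was widest, as a mean over the 6 groups, for Atp5j (−1.15), Ndufab1 (−1.14) and Ndufa2 (−1.07), and near 0 for Sdha and Ndufs1 (0.02). Because this spread within groups touches every comparison of the cells, results are given over all 3 libraries and again within the later date, with 2 libraries per group; the earlier date has 1 cell library per group and gives no test between cell groups.

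**Figure D1:**
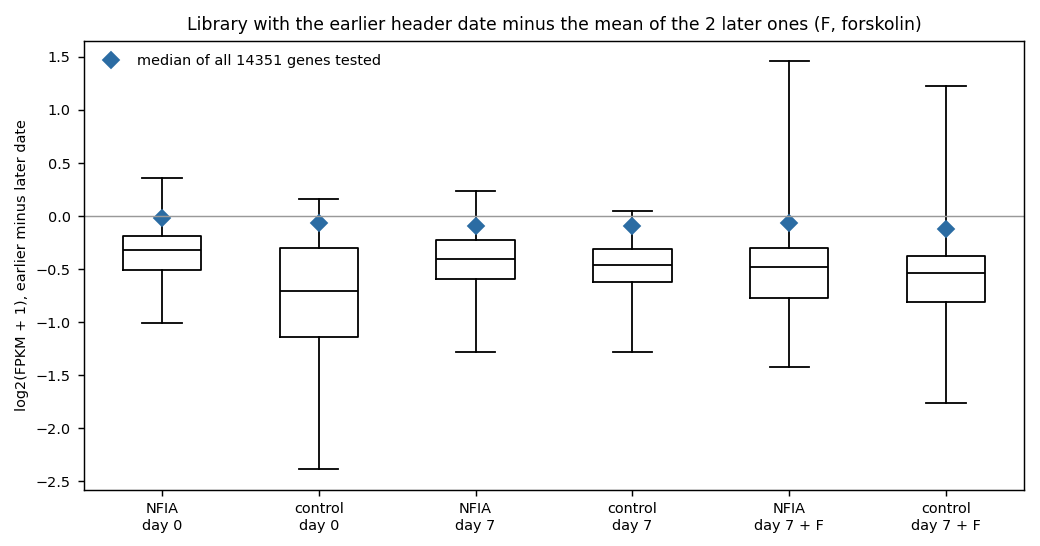
Difference between the library with the earlier header date and the mean of the 2 later ones, in log2(FPKM + 1), over the 73 members in the 6 C2C12 groups; boxes span the quartiles with the median as a line, whiskers run to the lowest and highest member, and diamonds mark the median of all genes tested. The upper edge of every box lies below 0, with medians between −0.71 and −0.32, whereas the diamonds lie between −0.12 and −0.02.

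Members were abundant messages in every group, and highest in the tissue. The median of the members' mean levels was 476.5 FPKM in tissue labelled NFIA-KO and 531.7 FPKM in WT tissue, against 173.7 FPKM in NFIA cells and 148.5 FPKM in control cells at day 7, and 108.5 FPKM in NFIA cells and 101.0 FPKM in control cells at day 0. Means of at least 1000 FPKM were reached by 15 members in tissue labelled NFIA-KO and 21 in WT tissue, but by 1 member in each cell group at day 0 and at day 7 without forskolin. That member was Atp5b, the catalytic β subunit of the synthase, which had the highest mean of all members in every group. After Atp5b (6102 ± 795 FPKM), WT tissue was led by Ndufa4 (2989 ± 266 FPKM), Atp5a1 for the α subunit (2660 ± 199 FPKM) and the small complex III subunit Uqcrq (2276 ± 271 FPKM; SD, n = 3 for each). From Ndufa4 to Uqcrq each gene overlapped its neighbour in this order in library values. Ndufa4l2, known as a hypoxia-induced relative of Ndufa4, was the lowest member in the 6 cell groups and in tissue labelled NFIA-KO, at 1.02 FPKM in NFIA cells and 0.16 FPKM in control cells at day 7 and 10.0 FPKM in tissue labelled NFIA-KO.

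Summed by complex, the subunit genes were several-fold higher in the tissue for complexes I, II and III and less so for complex V. Complex I genes summed to 6973 ± 1390 FPKM in NFIA cells and 5786 ± 1160 FPKM in control cells at day 7, and to 19220 ± 1530 FPKM in tissue labelled NFIA-KO and 21480 ± 934 FPKM in WT tissue. Complex III genes summed to 3479 ± 707 FPKM in NFIA cells and 2397 ± 499 FPKM in control cells at day 7, and complex V genes to 7409 ± 1240 FPKM in NFIA cells and 6019 ± 1080 FPKM in control cells. In each of these 3 complexes the cell groups overlapped, the NFIA library of the earlier date lying among the control libraries. Complex II stood apart, with sums of 1052, 1173 and 1054 FPKM in NFIA cells and 746.1, 805.4 and 841.4 FPKM in control cells at day 7. Its sums did not overlap in the tissue either, at 3454, 3989 and 3766 FPKM in libraries labelled NFIA-KO and 4552, 4474 and 4130 FPKM in WT libraries. The 4 assembly factors, far lower in level, summed to 97.9 ± 5.38 FPKM in NFIA cells and 78.3 ± 8.67 FPKM in control cells at day 7, and to 126.4 ± 16.4 FPKM in tissue labelled NFIA-KO and 205.2 ± 35.4 FPKM in WT tissue, again without overlap. In bulk RNA, fewer cells of a type and less RNA per cell cannot be told apart, in these sums or in any level given here.

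**Figure D2:**
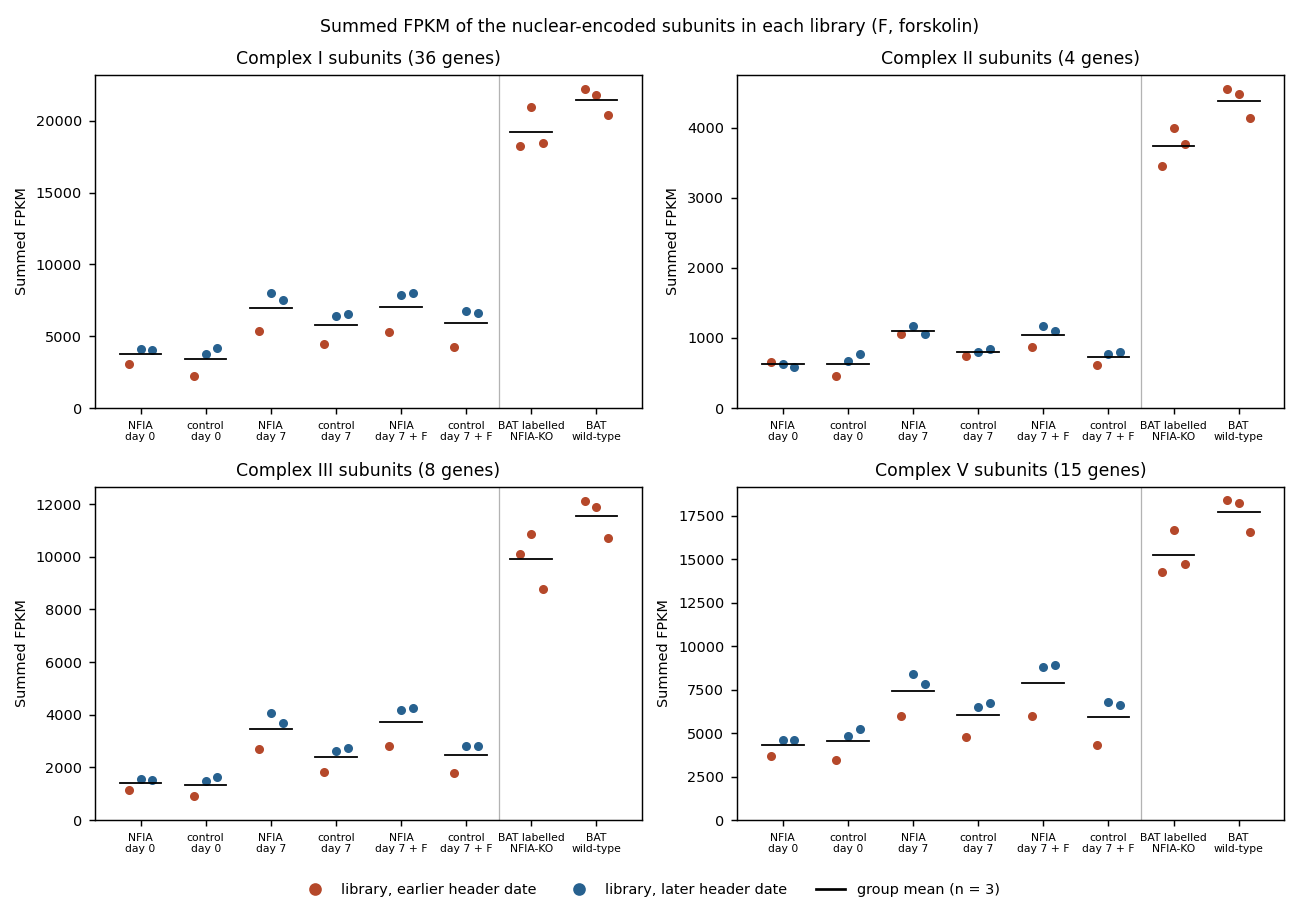
Summed FPKM of the subunit genes of complexes I, II, III and V (linear axes from 0) in every library of the 8 groups, coloured by header date, with the group mean as a line. All tissue libraries lie above all cell libraries in the 4 panels, and at day 7 NFIA and control cells do not overlap for complex II but do for complexes I, III and V.

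Whether NFIA changes respiratory chain genes during differentiation was asked first at day 7. Of the 73 members, 12 were higher and 1 was lower in NFIA cells than in control cells (adjusted p under 0.05, limma on log2(FPKM + 1), Benjamini-Hochberg over all genes tested), against 26.1% of all genes higher and 29.4% lower. The share of members called higher lay below the background, and 63 of 73 fitted log2 changes were positive, with a median of 0.31 against −0.03 over all genes. Library values did not overlap for 19 members above and 2 below, against 29.6% and 33.7% of all genes. With the libraries of the later date alone 44 members were higher and 5 lower, against 31% and 35.7% of all genes, and the median change was 0.29. The split also moved with scaling: quantile normalization gave 24 higher and 1 lower, against 29.2% and 28.4% of all genes, and median-of-ratios scaling 21 higher and 1 lower, against 27.9% and 28.6%. Counts by role in the next paragraphs stand against the same shares of all genes. The adipocyte and muscle marker sums given above differ between the same groups, and their part in these changes was not tested.

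Ndufaf4, which helps to assemble complex I, changed most among the called members with at least 5 FPKM. It is listed at chr4:24825230-24832148 (mm9). Its level was 26.2, 27.0 and 25.0 FPKM in NFIA cells and 11.7, 13.5 and 16.4 FPKM in control cells at day 7. Every NFIA library lay above every control library, 1.83-fold on average on the fitted scale (log2 change 0.87 ± 0.11 SE, limma adjusted p = 7.4e-06). The log2 change was 0.76 ± 0.11 within the later date (limma adjusted p = 0.00024) and between 0.76 and 0.99 over 15 alternatives. The other 3 assembly factors did not pass the test, and the 4 had changes between −0.12 and 0.87.

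Sdha, the flavoprotein of complex II that oxidises succinate, was listed at chr13:74459702-74487728 (mm9). It stood at 433.4, 397.9 and 341.4 FPKM in NFIA cells and 237.3, 234.7 and 223.3 FPKM in control cells. The groups were well apart, with little spread among controls, and the log2 change was 0.75 ± 0.15 (limma adjusted p = 0.00061; 0.68 ± 0.15 within the later date). Sdhb, the iron-sulfur subunit, averaged 138.1 ± 21.5 FPKM in NFIA cells and 111.1 ± 20.6 FPKM in control cells, a log2 change of 0.32 (limma adjusted p = 0.22). Sdhc and Sdhd, which anchor the complex in the membrane, both had a log2 change of 0.31 (limma adjusted p = 0.40 and 0.17). All 4 complex II genes were called higher within the later date, with changes of 0.28 for Sdhb, 0.35 for Sdhc, 0.29 for Sdhd and 0.68 for Sdha (limma adjusted p = 0.0092, 0.0092, 0.0087 and 0.0028).

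The 20 genes grouped as membrane arm mostly encode accessory subunits of the proton-pumping arm of complex I. Ndufa9, which belongs to the other arm, was counted with them. The group included 3 called higher and 0 lower, with changes between −0.10 and 0.90 and a median of 0.25. Ndufb10 (chr17:24859005-24861423, mm9) stood at 234.3, 292.0 and 262.9 FPKM in NFIA cells and 145.9, 160.9 and 171.6 FPKM in control cells. Its groups did not overlap, and the log2 change was 0.72 ± 0.12 (limma adjusted p = 9.6e-05). Ndufb3 (chr1:58643228-58652808, mm9) had 130.6, 146.5 and 131.9 FPKM in NFIA cells and 78.8, 85.6 and 92.6 FPKM in control cells, and Ndufa10 (chr1:94335587-94370437, mm9) had 110.3, 132.0 and 126.6 FPKM in NFIA cells and 70.7, 84.1 and 86.1 FPKM in control cells. Neither overlapped between groups, with log2 changes of 0.67 ± 0.16 and 0.61 ± 0.13 (limma adjusted p = 0.0028 and 7e-04). Ndufa1, encoded on the X chromosome, had the largest change in this arm, 0.90, and was not called over all libraries (limma adjusted p = 0.06). Its change within the later date was 0.91 ± 0.07 (limma adjusted p = 4.1e-06).

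The N module, which binds NADH, had 2 of 11 genes called higher, counting Ndufa6 and Ndufab1, which lie outside it. Ndufs1, its largest iron-sulfur subunit, stood at 92.8, 90.2 and 88.5 FPKM in NFIA cells and 64.4, 65.4 and 69.7 FPKM in control cells (log2 change 0.44 ± 0.06, limma adjusted p = 1.5e-05). The spread within each group was small, and the groups did not overlap. Ndufv1, which carries the flavin, changed by 0.55 (limma adjusted p = 0.0018). The Q module, which reduces ubiquinone, had 0 of 5 genes called, with a median of −0.11 and changes between −0.23 and 0.24. Within the later date the membrane arm had 10 genes higher and 0 lower and the N module 7 higher and 1 lower (Ndufs4).

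In complex III, 2 of 8 genes were called higher and all 8 had positive changes, between 0.13 and 1.05. Uqcrc1, a core protein, averaged 125.3 ± 21.1 FPKM in NFIA cells and 92.9 ± 11.1 FPKM in control cells, and the hinge protein Uqcrh changed by 0.39 (limma adjusted p = 0.042 and 0.049). Both calls were lost when NFIA replicate 2 or 3 or control replicate 1 or 2 was left out, and that of Uqcrh also lacking NFIA replicate 1. Uqcrq had the largest change, 1.05 ± 0.49, with levels of 545.0, 1191 and 983.5 FPKM in NFIA cells and 243.9, 576.2 and 512.5 FPKM in control cells. The libraries of the earlier date were lowest in both groups, and the groups overlapped and did not pass the test (limma adjusted p = 0.083). Within the later date the change was 0.99 ± 0.12 (limma adjusted p = 1e-04), and 7 of the 8 complex III genes were called higher.

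Among complex V genes the head had 1 of 5 and the stalk and membrane part 1 of 7 called higher. Within the later date all 5 head genes were called higher, with log2 changes between 0.16 and 0.47. So were Atp5f1, Atp5h, Atp5k and Atp5l of the stalk and membrane part, while Atp5j, Atp5j2 and Atp5o were not called. These calls stand against the share of all genes given above for that date. Atp5a1 stood at 438.8, 566.5 and 536.4 FPKM in NFIA cells and 352.5, 442.2 and 415.4 FPKM in control cells. The groups overlapped by 1 library, the NFIA library of the earlier date, and the call (log2 change 0.35, limma adjusted p = 0.023) was lost when NFIA replicate 2 or 3 or control replicate 1 was left out. Atp5f1, part of the peripheral stalk, changed by 0.36 (limma adjusted p = 0.029), a call lost when the same libraries were left out. Atp5b averaged 2032 ± 269 FPKM in NFIA cells and 1467 ± 169 FPKM in control cells. Its groups did not overlap, but the log2 change of 0.47 was not called over all libraries. Within the later date the change was 0.47 ± 0.06 and was called (limma adjusted p = 0.00019). The sole member called lower over all libraries was Atp5sl, named for likeness to an ATP synthase factor and counted apart from the complex V subunit genes. It stood at 3.81 FPKM in NFIA cells and 5.91 FPKM in control cells (log2 change −0.51, limma adjusted p = 0.0063).

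The genes of the c subunit differed in sign at day 7. Atp5g3 (chr2:73746504-73749383, mm9), the most abundant, stood at 805.9, 1084 and 1072 FPKM in NFIA cells and 622.9, 780.5 and 829.3 FPKM in control cells. Atp5g1 (chr11:95930166-95936984, mm9) had 77.7, 161.1 and 141.8 FPKM in NFIA cells and 67.3, 105.1 and 101.9 FPKM in control cells. Atp5g2 (chr15:102493299-102501478, mm9) had 81.0, 125.3 and 122.1 FPKM in NFIA cells and 111.4, 165.0 and 172.7 FPKM in control cells. Each set of groups overlapped over all 3 libraries, and the log2 changes of 0.41 for Atp5g3, 0.43 for Atp5g1 and −0.45 for Atp5g2 were not called (limma adjusted p = 0.11, 0.25 and 0.32). Within the later date all 3 were called, Atp5g3 higher (0.42 ± 0.05), Atp5g1 higher (0.54 ± 0.11) and Atp5g2 lower (−0.45 ± 0.06; limma adjusted p = 7.1e-05, 0.002 and 0.00012). As a share of the summed c subunit FPKM, Atp5g2 made up 8.89 ± 0.433% in NFIA cells, against 15.1 ± 1.03% in control cells, and was lower in every NFIA library than in any control library.

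Ndufa4, first assigned to complex I and now counted with complex IV, averaged 675.4 ± 113 FPKM in NFIA cells and 643.8 ± 146 FPKM in control cells (log2 change 0.08, limma adjusted p = 0.82). Ndufa4l2 was called higher with 0.69, 1.34 and 1.04 FPKM in NFIA cells and 0.17, 0.09 and 0.22 FPKM in control cells (0.79 on the log2(FPKM + 1) scale, which understates the change of low genes). These are levels near the lower limit of what was tested.

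**Figure D3:**
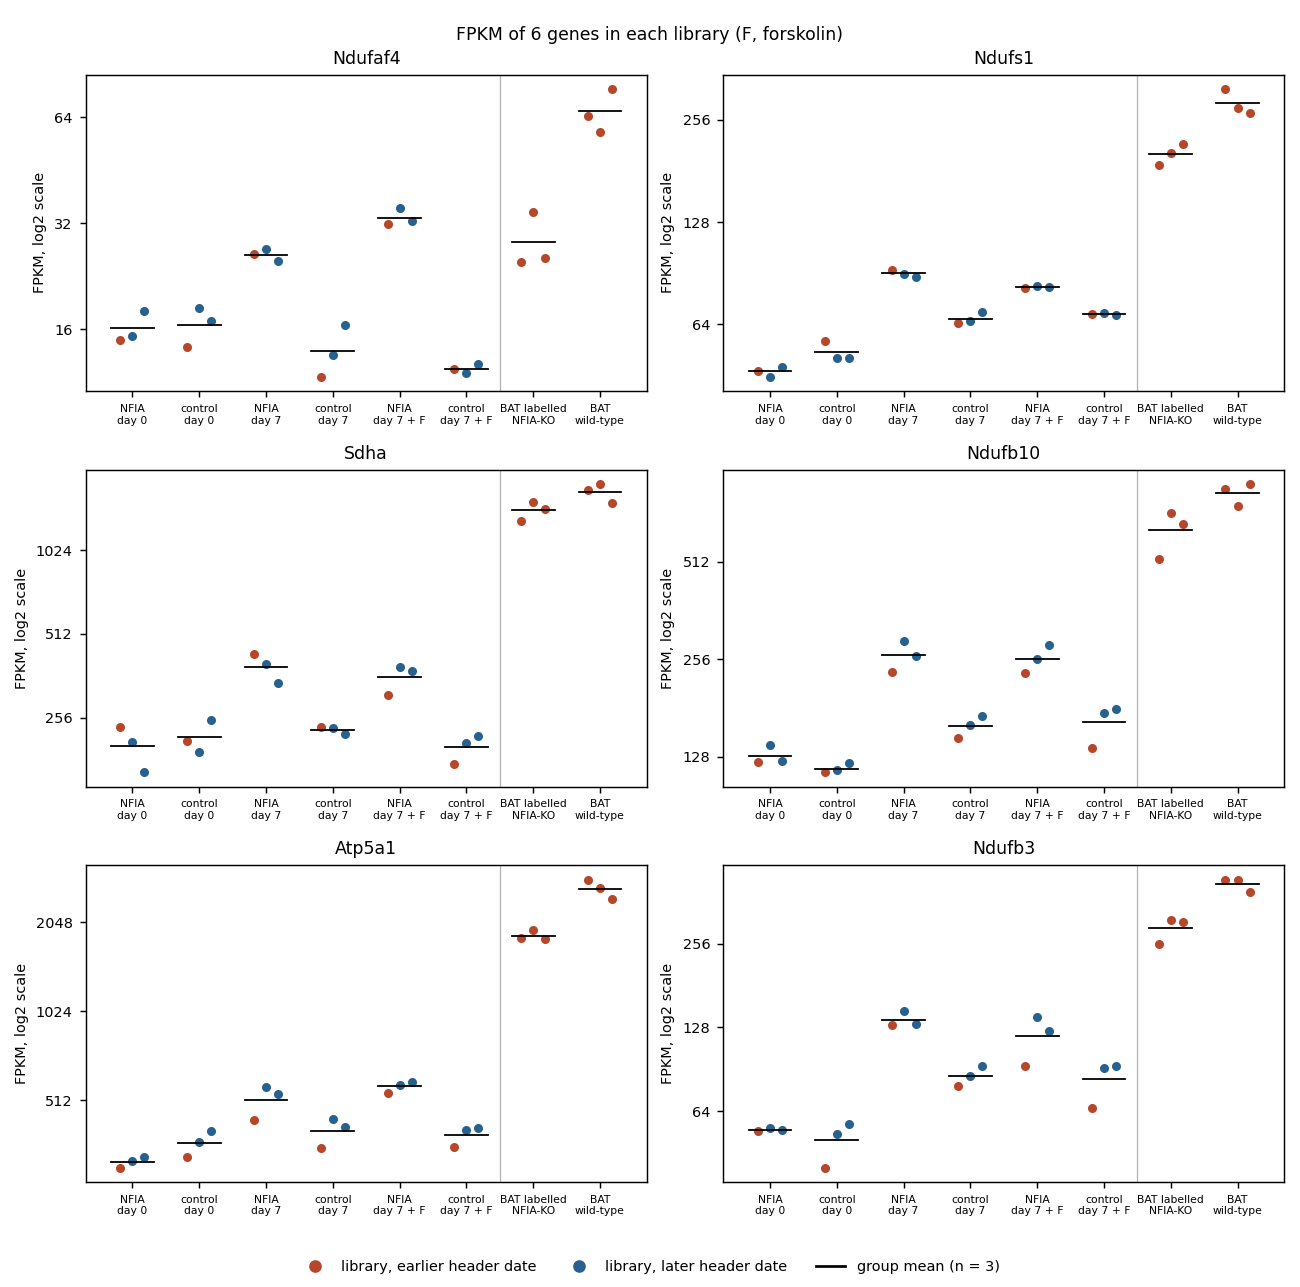
FPKM (log2 axis) of Ndufaf4, Ndufs1, Sdha, Ndufb10, Atp5a1 and Ndufb3 in every library of the 8 groups, coloured by header date; lines are group means. NFIA libraries at day 7 lie above their control libraries for each gene but Atp5a1, where 1 NFIA library lies among them, and the libraries labelled NFIA-KO lie below WT libraries for Ndufaf4, Ndufs1, Atp5a1 and Ndufb3.

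With 4 h of forskolin at day 7, 17 members were higher and 1 lower in NFIA cells than in control cells, against 28.7% and 32.9% of all genes, and the median change was 0.32 against −0.04 over all genes. The split depends on scaling: after quantile normalization 9 were higher and 9 lower, against 28.6% and 32.8% of all genes, with a median of 0.01. Library values did not overlap for 24 members above and 1 below, against 30.6% and 34.5% of all genes. With the later date alone 48 were higher and 8 lower, against 33.4% and 38.1% of all genes. All 12 members called higher without forskolin were among the 17 called with it, which is 100% of the 12 and 70.6% of the 17. Over all genes the corresponding shares were 75.8% and 68.9%.

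Ndufaf4 again led, with 31.8, 35.3 and 32.4 FPKM in NFIA cells and 12.3, 12.02 and 12.8 FPKM in control cells after forskolin. The groups were far apart and tight (log2 change 1.35 ± 0.11, limma adjusted p = 5e-08; 1.38 ± 0.11 within the later date). Sdha stood at 308.8, 390.1 and 377.4 FPKM in NFIA cells and 173.8, 207.0 and 220.6 FPKM in control cells, without overlap (0.84 ± 0.15, limma adjusted p = 0.00019). Atp5b had 1572, 2549 and 2508 FPKM in NFIA cells and 936.3, 1525 and 1488 FPKM in control cells, again without overlap although the libraries of the earlier date were lowest in both groups (0.75 ± 0.22, limma adjusted p = 0.0072; 0.75 within the later date). Ndufa1 had 238.5, 361.9 and 354.1 FPKM in NFIA cells and 124.7, 182.5 and 181.6 FPKM in control cells (0.96 ± 0.39, limma adjusted p = 0.043). Atp5g1 had 121.2, 149.8 and 187.2 FPKM in NFIA cells and 65.3, 107.4 and 98.3 FPKM in control cells (0.76 ± 0.31, limma adjusted p = 0.042). Neither gene overlapped between groups, but both calls ended when 1 of several libraries was left out: Ndufa1 lacking NFIA replicate 2 or 3 or any control replicate, and Atp5g1 lacking NFIA replicate 2 or 3 or control replicate 1 or 3.

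Ndufb3 had a change of 0.51 (limma adjusted p = 0.014), a call lost when NFIA replicate 2 or control replicate 1 was left out, and Ndufs1 of 0.26, which turned to −0.051 after quantile normalization.

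By role, complex III had 3 of 8 genes called higher after forskolin and the synthase head 2 of 5. The membrane arm had 4 of 20, the N module 2 of 11 and complex II 1 of 4, each below the share of all genes given above. The Q module had 0 of 5, with a median of −0.19, and within the later date 1 of its genes was higher and 3 were lower. All 8 complex III genes and all 5 head genes were called higher within the later date, against the share of all genes given above for that date. Atp5g3 and Atp5g2 had log2 changes of 0.45 and −0.45 and were not called over all libraries (limma adjusted p = 0.066 and 0.30). They were called in opposite directions within the later date, 0.43 and −0.42. The log2 changes of Sdhb, Sdhc and Sdhd were 0.18, 0.45 and 0.36 and that of Ndufa4 was 0.21, none of them called (limma adjusted p = 0.47, 0.21, 0.11 and 0.52).

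Before differentiation, at day 0, few members were called. Ndufs4, a regulatory N module subunit, was higher and Ndufs1 lower in NFIA cells, and no other member was called (1 higher and 1 lower, against 12.1% and 9.07% of all genes). Library values did not overlap for 2 members above and 5 below, against 18.5% and 15% of all genes. Ndufs4 stood at 45.5, 54.6 and 57.1 FPKM in NFIA cells and 33.2, 40.5 and 43.5 FPKM in control cells, without overlap (log2 change 0.42 ± 0.13, limma adjusted p = 0.037). Ndufs1 had 46.7, 44.8 and 48.0 FPKM in NFIA cells and 57.2, 50.8 and 51.0 FPKM in control cells, also without overlap (−0.18 ± 0.06, limma adjusted p = 0.042). Both calls ended without 1 of several libraries: Ndufs4 lacking NFIA replicate 2 or 3 or control replicate 1 or 2, and Ndufs1 lacking any NFIA replicate or control replicate 1. Within the later date 5 members were higher and 5 lower, against 15.7% and 12.8% of all genes. With the header date as a term in the fit 10 were higher and 2 lower, against 21.1% and 15.9% of all genes, and Ndufaf3, another complex I assembly factor, was among the higher ones (0.65, limma adjusted p = 0.00015). None of the c subunit genes, complex II genes or Ndufa4 was called over all libraries at day 0. Within the later date Atp5g3 (−0.28) and Sdhd (−0.24) were called lower and the others of these were not called (limma adjusted p = 0.0029 and 0.045).

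Many members rose with differentiation in both kinds of cells. In NFIA cells 46 members were higher and 0 lower at day 7 than at day 0, against 27.5% and 29.4% of all genes, with a median change of 0.74. In control cells 32 were higher and 0 lower, against 24.9% and 23.9% of all genes, with a median of 0.63. Within the later date 68 were higher and 0 lower in NFIA cells, against 33.2% and 33.3% of all genes, and 61 higher and 1 lower in control cells, against 32.2% and 28%. Library values did not overlap for 56 members above and 0 below in NFIA cells, against 31.2% and 33.7% of all genes, and for 34 above and 0 below in control cells, against 27.5% and 25.8%. Called members in NFIA cells included 12 of 20 membrane arm genes, 7 of 11 N module genes, all 8 complex III genes (median 1.18), 3 of 4 complex II genes, 4 of 5 head genes and 1 of 3 c subunit genes. In control cells they included 11 of 20 membrane arm genes, 7 of 11 N module genes, 6 of 8 complex III genes and 2 of 5 head genes, but 0 of 4 complex II genes and 0 of 3 c subunit genes.

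Ndufv3, a small N module subunit, rose in both: it stood at 231.5, 372.6 and 327.2 FPKM at day 7 and 83.6, 98.0 and 98.2 FPKM at day 0 in NFIA cells, and at 170.4, 255.8 and 219.8 FPKM at day 7 and 38.7, 86.3 and 86.8 FPKM at day 0 in control cells. Day 7 lay above day 0 in every library, with log2 changes of 1.70 ± 0.28 in NFIA cells and 1.67 ± 0.28 in control cells (limma adjusted p = 9.7e-05 and 0.00017). In NFIA cells the other 4 called members with the largest changes were Uqcrq (1.70 ± 0.49), Ndufa1 (1.44 ± 0.39), Uqcr10 (1.43 ± 0.32) and Ndufa3 (1.41 ± 0.40). In control cells they were Atp5k (1.65 ± 0.45), Ndufa13 (1.31 ± 0.41), Ndufa1 (1.30 ± 0.39) and Ndufa3 (1.29 ± 0.40; limma adjusted p between 0.0015 and 0.016 for these 8). The count in control cells lay between 17 and 42 when 1 library was left out, and was 19 without day 0 replicate 1, 17 without day 7 replicate 2 and 18 without day 7 replicate 3.

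Some genes were called with time in NFIA cells, where Nfia also differed as given above, and not in control cells. Sdha had a log2 change with time of 0.95 in NFIA cells (limma adjusted p = 6.7e-05) and of 0.09 in control cells (limma adjusted p = 0.65). Ndufaf4 had 26.1 ± 1.02 FPKM at day 7 and 16.1 ± 1.69 FPKM at day 0 in NFIA cells, and 13.9 ± 2.36 FPKM at day 7 and 16.5 ± 2.11 FPKM at day 0 in control cells. The difference between the time courses was tested as an interaction of NFIA with day, and 9 members were called with a larger change in NFIA cells and 1 with a smaller one, against 19.8% and 25.5% of all genes (36 and 4 with the later date alone, against 25.6% and 31.2%). Ndufaf4 had an interaction of 0.91, Sdha of 0.86, Ndufv1 of 0.71, Ndufa10 of 0.67 and Ndufs1 of 0.62 (limma adjusted p = 0.00024, 0.0039, 0.0048, 0.0061 and 2.3e-05). Ndufs4 was the member with the smaller change in NFIA cells, at −0.51 (limma adjusted p = 0.038). This call was lost in 9 of 21 alternatives, with adjusted p up to 0.099: with no filter, and without NFIA day 0 replicate 2 or 3, control day 0 replicate 1, any NFIA day 7 replicate or control day 7 replicate 2 or 3. Atp5g3 had a log2 change of 0.90 in NFIA cells (limma adjusted p = 0.0015) and of 0.35 in control cells (0.17), with a difference of 0.55 that was not called over all libraries (limma adjusted p = 0.14) and of 0.71 within the later date (limma adjusted p = 4.1e-05). Atp5g2 had a log2 change of 0.02 in NFIA cells and of 0.56 in control cells (limma adjusted p = 0.97 and 0.22), with a difference of −0.54 that was not called over all libraries (limma adjusted p = 0.43) and of −0.41 within the later date (limma adjusted p = 0.0025).

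**Figure D4:**
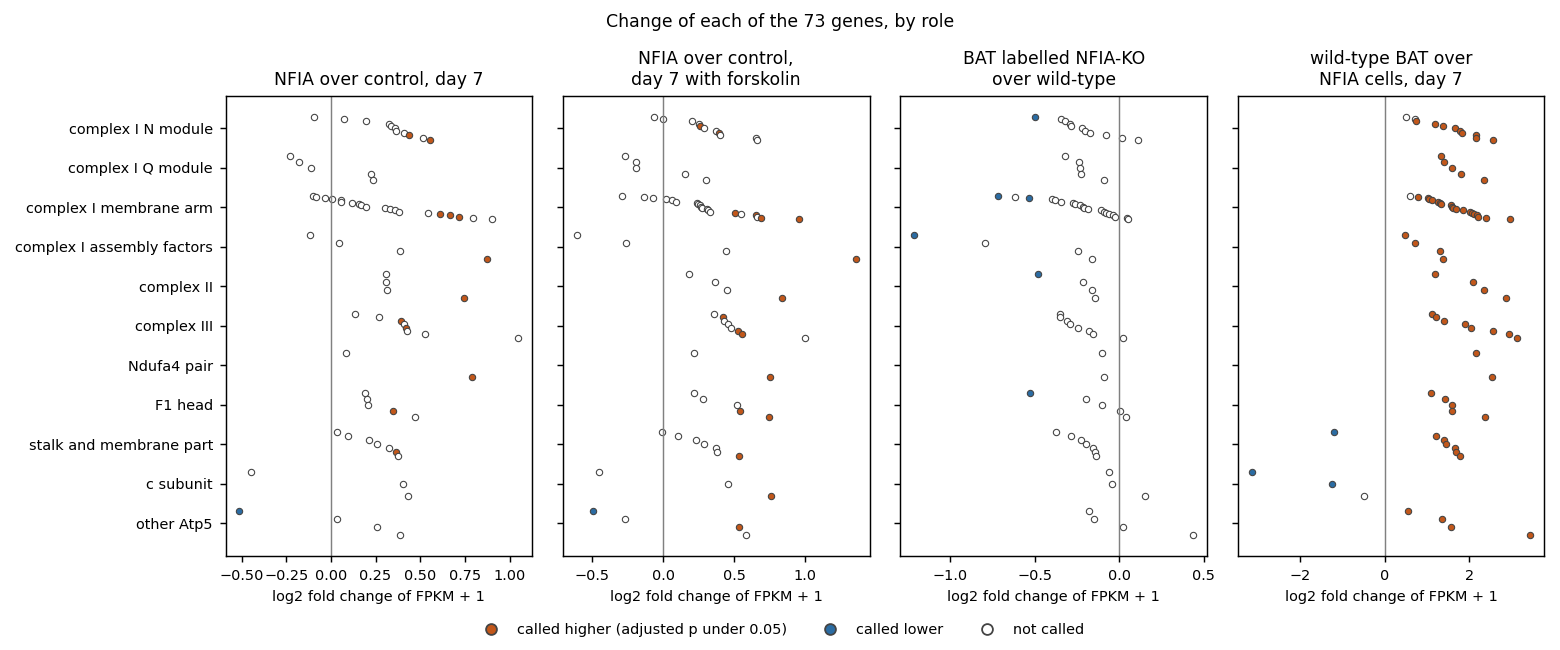
Fitted log2 change of each of the 73 members by role, for NFIA over control cells at day 7 without and with forskolin, for tissue labelled NFIA-KO over WT tissue and for WT tissue over NFIA cells at day 7; orange points were called higher, blue points lower and white points were not called, and the 4 axes differ in range. Most points lie right of 0 in the cell comparisons, 63 of 73 lie left of 0 in tissue labelled NFIA-KO, and the c subunit genes lie left of 0 in the comparison of WT tissue with NFIA cells.

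Few members were called between cells with and without forskolin, and in NFIA cells Nfia itself also differed, as given above. In NFIA cells 1 member was higher and 1 lower with forskolin than without it, against 15.7% and 16.9% of all genes, and with the later date alone 13 were higher and 3 lower, against 23.8% and 23.4%. In control cells 0 were called in either direction by limma, against 1.92% of all genes higher and 2.06% lower, with 0 at an unadjusted p under 0.05 and 0 with the later date alone, against 2.66% and 2.69%. Library values did not overlap for 2 members above and 2 below in NFIA cells, against 20.5% and 21.7% of all genes, and for 0 above and 1 below in control cells, against 8.64% and 10%. Ndufaf4 stood at 31.8, 35.3 and 32.4 FPKM with forskolin and 26.2, 27.0 and 25.0 FPKM without it in NFIA cells (log2 change 0.34 ± 0.11, limma adjusted p = 0.032), without overlap. This call ended without any of the 3 libraries without forskolin, without forskolin replicate 2 or 3, and under quantile normalization. Atp5s, known as coupling factor B of the synthase, was lower, at 3.85 FPKM with forskolin and 5.58 FPKM without it (−0.44 ± 0.12, limma adjusted p = 0.011). The interaction of NFIA with forskolin was called for Ndufaf4 alone (0.48 ± 0.16, limma adjusted p = 0.045, against 10.5% of all genes called higher and 9.61% lower; 4 members higher and 2 lower with the later date alone, against 17.1% and 15.4%), with values between 0.36 and 0.62 over 21 alternatives and the call lost in 14 of them. After quantile normalization 0 members were higher and 11 lower in NFIA cells with forskolin than without it, against 12.4% and 17% of all genes, with a median of −0.27, so the direction of the small changes depends on scaling.

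In brown adipose tissue labelled NFIA-KO limma called 6 members lower and 0 higher than in WT tissue, against 3.55% and 3.59% of all genes. Fitted changes were negative for 63 of 73 members, called or not, with a median of −0.20 against −0.02 over all genes. Library values did not overlap for 22 members below and 2 above, against 18.2% and 16.5% of all genes. Nfia itself was higher in the libraries labelled NFIA-KO, as given above, so these directions rest on the labels. In the same libraries 3 of the 6 brown adipocyte markers (Ucp1, Cox8b and Elovl3) lay below all WT libraries, Ppargc1a lay above them and Cidea and Dio2 overlapped, while the summed skeletal muscle markers were higher. Their part in these differences was not tested.

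Ndufaf4 differed most, at 24.8, 34.5 and 25.6 FPKM in libraries labelled NFIA-KO and 64.5, 58.1 and 77.0 FPKM in WT libraries. The groups were well separated, with a log2 change of −1.21 ± 0.17 (limma adjusted p = 0.022). The other assembly factors were not called, and the 4 had a median of −0.52. Ndufb7 (chr8:86090570-86095525, mm9), a membrane arm subunit, stood at 279.8, 326.3 and 257.0 FPKM in libraries labelled NFIA-KO and 496.0, 456.2 and 461.2 FPKM in WT libraries (−0.72 ± 0.12, limma adjusted p = 0.029). Its groups did not overlap.

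Ndufb3 had 255.6, 312.5 and 306.7 FPKM in libraries labelled NFIA-KO and 435.0, 434.7 and 394.0 FPKM in WT libraries (−0.53 ± 0.12, limma adjusted p = 0.047). Atp5a1 had 1814, 1920 and 1794 FPKM in libraries labelled NFIA-KO and 2849, 2678 and 2453 FPKM in WT libraries (−0.53 ± 0.11, limma adjusted p = 0.041). Ndufs1 had 188.7, 203.9 and 217.3 FPKM in libraries labelled NFIA-KO and 316.0, 278.3 and 269.0 FPKM in WT libraries (−0.50 ± 0.12, limma adjusted p = 0.049). In all 3 every library labelled NFIA-KO lay below every WT library. Sdhd (chr9:50404443-50411954, mm9) likewise had 542.1, 612.8 and 572.1 FPKM in libraries labelled NFIA-KO and 868.8, 774.5 and 767.8 FPKM in WT libraries (−0.48 ± 0.11, limma adjusted p = 0.047).

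These calls are close to the threshold. Leaving out 1 library in turn left between 0 and 3 called, namely 0 without NFIA-KO replicate 1, WT replicate 1 or WT replicate 3, 1 without NFIA-KO replicate 2 or 3, and 3 without WT replicate 2. The Ndufaf4 change stayed between −1.36 and −1.10 over 12 alternatives, with adjusted p between 0.017 and 0.11. Of the 6 members lower in tissue labelled NFIA-KO, 4 were among the 12 higher in NFIA cells at day 7, namely Ndufaf4, Ndufb3, Ndufs1 and Atp5a1. Over all genes, 50.9% of the 438 called lower in that tissue and tested in the cells were called higher in NFIA cells at day 7. The other two were not called in the cells, where Ndufb7 averaged 196.2 ± 55.6 FPKM in NFIA cells and 207.2 ± 44.1 FPKM in control cells at day 7, and Sdhd averaged 158.6 ± 20.2 FPKM in NFIA cells and 128.0 ± 19.8 FPKM in control cells.

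Most members were not called in the tissue. Complex III had 0 of 8 called, with a median of −0.27, the Q module 0 of 5, with −0.23, and the stalk and membrane part of the synthase 0 of 7, with −0.20. Sdha had 1309, 1527 and 1445 FPKM in libraries labelled NFIA-KO and 1687, 1767 and 1509 FPKM in WT libraries (−0.21, limma adjusted p = 0.27), with overlap, and the log2 changes of Sdhb and Sdhc were −0.16 and −0.15 (limma adjusted p = 0.46 and 0.47). Those of Ndufa4 and Ndufa4l2 were −0.10 and −0.09 (limma adjusted p = 0.62 and 0.77). The c subunit genes had log2 changes of −0.04 for Atp5g1, 0.15 for Atp5g2 and −0.06 for Atp5g3 (limma adjusted p = 0.94, 0.41 and 0.86). The sum of the 3 was 497 ± 94.7 FPKM in tissue labelled NFIA-KO and 499 ± 51.2 FPKM in WT tissue (SD, n = 3 each).

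WT tissue was then set against the day 7 cells, with all 24 libraries in 1 fit. All tissue libraries carry the earlier header date and the cell groups mix both dates, and tissue and culture cannot be told apart from cell type. Compared with NFIA cells 66 members were higher and 3 lower in WT tissue, against 30.4% and 38.9% of all genes, with a median change of 1.58. Compared with control cells 67 were higher and 3 lower, against 33.8% and 41.6% of all genes, with a median of 1.78. Library values lay apart for 69 members above and 4 below in each comparison, against 31.6% and 40.8% of all genes for NFIA cells and 34.6% and 42.7% for control cells. With only the cell libraries of the earlier date, 67 members were higher and 3 lower against NFIA cells (24.3% and 27% of all genes), and 67 higher and 2 lower against control cells (28.4% and 31.6%). Each cell group then has 1 library, whose spread is assumed to be that of the other groups in the fit. The same WT libraries stand in both comparisons, so the values are given side by side.

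Of the 4 complexes, II and III had the highest role medians. Atp5sl had the largest change of any member against NFIA cells, 3.44, at 51.9 FPKM in WT tissue and 3.81 FPKM in NFIA cells (limma adjusted p = 1.6e-12). Uqcrc1 (chr9:108838661-108851685, mm9) stood at 1207, 1186 and 905.5 FPKM in WT tissue and 101.9, 142.7 and 131.4 FPKM in NFIA cells, with log2 changes of 3.12 ± 0.17 against NFIA cells (limma adjusted p = 3.4e-12) and 3.55 against control cells. Ndufc2, a membrane arm subunit, averaged 1119 ± 17.0 FPKM in WT tissue, 143.5 ± 20.5 FPKM in NFIA cells and 110.9 ± 21.9 FPKM in control cells. Uqcrfs1, the Rieske iron-sulfur protein, averaged 1002 ± 42.2, 132.0 ± 26.6 and 109.7 ± 22.6 FPKM in WT tissue, NFIA cells and control cells. For Sdhb the averages were 1006 ± 112 FPKM in WT tissue, 138.1 ± 21.5 FPKM in NFIA cells and 111.1 ± 20.6 FPKM in control cells. Role medians against NFIA cells were 2.21 for complex II and 1.97 for complex III, and 1.58 for the synthase head, with 4 of 4, 8 of 8 and 5 of 5 genes called higher. Against control cells they were 2.74 for complex II and 2.43 for complex III, and Ndufa4l2 had a change of 3.32.

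The c subunit genes went the other way. Atp5g1 stood at 12.8, 11.7 and 13.8 FPKM in WT tissue, against 77.7, 161.1 and 141.8 FPKM in NFIA cells and 67.3, 105.1 and 101.9 FPKM in control cells. The lowest cell library was several times above the highest WT library, and the log2 changes were −3.15 ± 0.32 against NFIA cells and −2.72 ± 0.32 against control cells (limma adjusted p = 4.1e-08 and 2.3e-07). Atp5g3 had 453.3, 353.6 and 425.8 FPKM in WT tissue, below every library of both cell groups (−1.26 ± 0.21 and −0.85 ± 0.21, limma adjusted p = 2.3e-05 and 0.001). Against the 1 control library of the earlier date alone the second value was −0.61 and was not called (limma adjusted p = 0.092). Atp5g2 had 75.0, 76.8 and 75.3 FPKM in WT tissue (−0.50 ± 0.32 against NFIA cells, limma adjusted p = 0.17, and −0.95 ± 0.32 against control cells, 0.012). Atp5j, for coupling factor 6 of the stalk, was the other member called lower against NFIA cells (−1.22 ± 0.46, limma adjusted p = 0.025), with values of 295.2, 267.3 and 308.6 FPKM in WT tissue and 445.4, 856.6 and 807.1 FPKM in NFIA cells. It is also the member with the widest gap between header dates, and its change ranged from −1.52 to −0.62 over alternatives, with adjusted p up to 0.086.

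As a ratio of FPKM values, which are per length, the 3 c subunit genes together stood at 0.0949 ± 0.0242 of Atp5b in tissue labelled NFIA-KO and 0.0831 ± 0.0163 in WT tissue. In the cells the ratio was 0.6 ± 0.0567 in NFIA cells and 0.669 ± 0.0361 in control cells at day 7, and 0.577 ± 0.027 in NFIA cells and 0.550 ± 0.117 in control cells at day 0 (SD, n = 3 each). In both cases NFIA and control cells overlapped. At day 7 with forskolin it was 0.583 ± 0.0567 in NFIA cells and 0.748 ± 0.0411 in control cells, without overlap. Tissue and cells did not overlap. Atp5g1 made up 2.58 ± 0.774% of the c subunit sum in tissue labelled NFIA-KO and 2.56 ± 0.177% in WT tissue, against 10.1 ± 1.90% in NFIA cells and 9.21 ± 0.800% in control cells at day 7. Atp5g3 made up the most in every one of these groups, at 79.9 ± 3.60% in tissue labelled NFIA-KO, 82.2 ± 1.96% in WT tissue, 81.0 ± 2.32% in NFIA cells and 75.7 ± 1.78% in control cells.

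**Figure D5:**
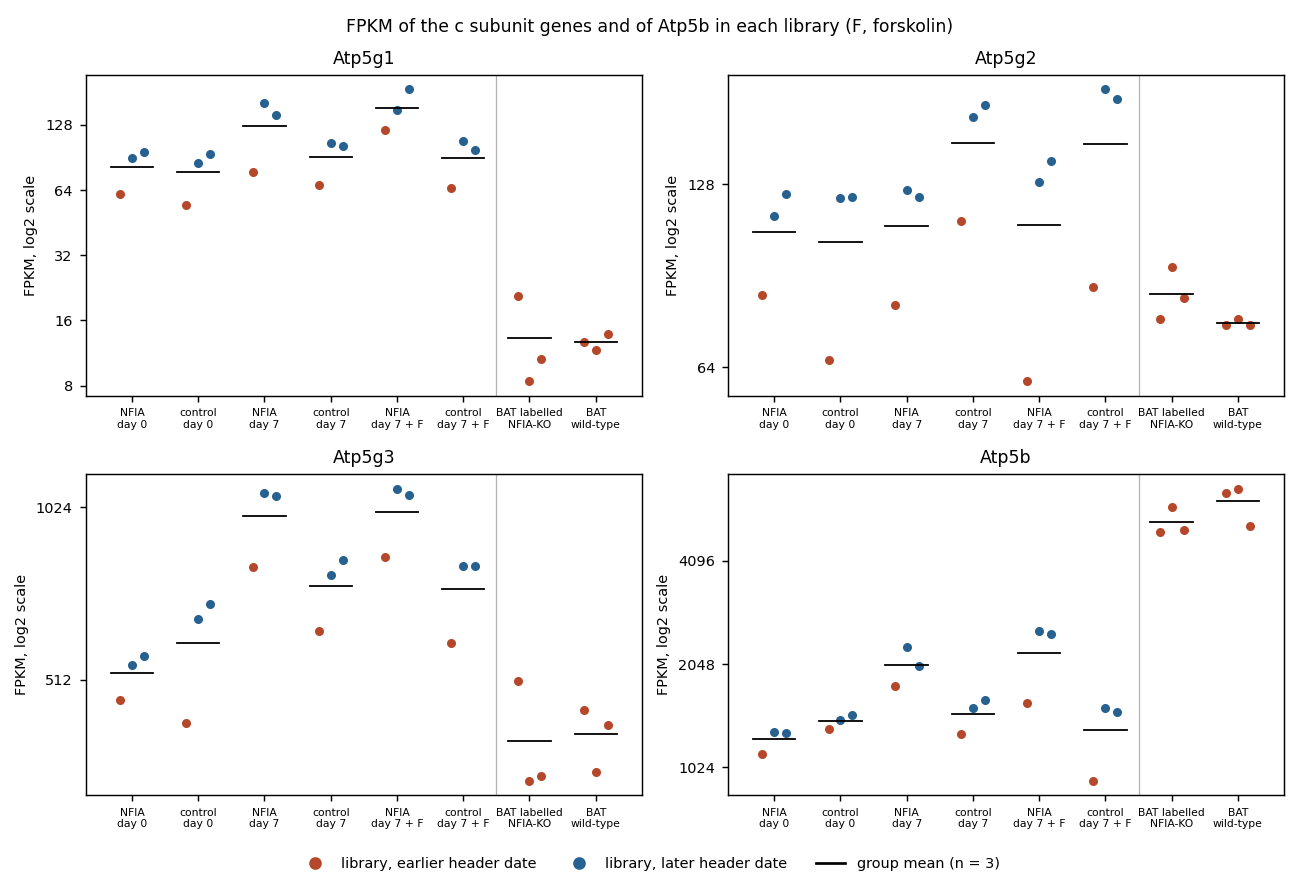
FPKM (log2 axis) of the c subunit genes Atp5g1, Atp5g2 and Atp5g3 and of Atp5b in every library of the 8 groups, with group means as lines. Atp5b is highest in the tissue, whereas Atp5g1 is lowest there, at 11.7 to 13.8 FPKM in WT libraries.

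Other genes of the pathway were read from lists. Of 16 further assembly factors and partners of these complexes, 6 were higher and 1 lower in NFIA cells than in control cells at day 7, against the 26.1% and 29.4% of all genes given above, among them the complex I assembly factors Acad9 (log2 change 1.24), Foxred1 (0.83) and Ecsit (0.70). The lower one was Atpif1, the inhibitor of the synthase's reverse activity, at 116.8 FPKM in NFIA cells and 334.2 FPKM in control cells (−1.50). Of 14 complex IV genes 1 was higher, Cox8b (365.3 FPKM in NFIA cells and 73.9 FPKM in control cells), and 2 were lower, Cox6a2 (−3.34) and Cox7a1 (−1.94). All 3 are known as heart and muscle isoforms, and Cox8b is also counted among the brown adipocyte markers above. Of 10 regulators of mitochondrial genes 4 were higher and 1 lower, including the coactivator Ppargc1a at 4.89 FPKM in NFIA cells and 0.64 FPKM in control cells. With forskolin Ppargc1a stood at 67.4 FPKM in NFIA cells and 1.28 FPKM in control cells (4.90).

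In the tissue 1 gene of each list was called, all lower in libraries labelled NFIA-KO. Cox8b averaged 882.2 FPKM in tissue labelled NFIA-KO and 3776 FPKM in WT tissue (−2.09), Ecsit changed by −0.63 and Gabpa, a subunit of the ETS factor NRF2, by −0.68. These counts stand against 3.55% of all genes. With time in NFIA cells 11 of the 16 partners were higher and 1 lower at day 7 than at day 0, 10 of the 14 complex IV genes were higher and 0 lower, and 5 of the 10 regulators were higher and 3 lower, against 27.5% and 29.4% of all genes. In control cells 4 partners were higher and 1 lower, 8 complex IV genes higher and 0 lower, and 1 regulator higher and 2 lower, against 24.9% and 23.9% of all genes.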

How the data were processed

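Per the labels, polyadenylated RNA was sequenced from 24 libraries in 8 groups of 3, and per the submitters' processing notes TopHat, Cufflinks and the mm9 build were used (versions not given in the sources used here). The authors deposited FPKM per gene, 37305 entries per library. Summing entries that share a symbol and overlap in position merged 264 of them, leaving 37041 genes; loci in mm9 are those the authors list and can span overlapping genes. Read depth is unknown, so precision rests on the libraries alone.

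Genes with at least 1 FPKM in at least 3 libraries of a fit were tested with limma 3.58.1 in R 4.3.3 on log2(FPKM + 1) with a variance trend, two-sided, with Benjamini-Hochberg adjustment over all genes tested: 14351 in the 18 C2C12 libraries, 13618 in the 6 tissue libraries and 15671 in all 24. Genes with an adjusted p under 0.05 were called. Tables and figures were made with pandas 2.3.3, numpy 2.4.6 and matplotlib 3.10.9, and the fit was tested on simulated data. Members, lists and markers were chosen with earlier results of these data known. Full statistics were given for at most 5 called members per direction with the largest change whose higher group averaged 5 FPKM or more and which had no library at 0; the c subunit, Ndufa4 and Sdh genes were described whether called or not. Members called at lower levels, and those that illustrate a role, were named after their values were seen.

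Alternatives were a pseudocount of 0.1, no filter, quantile and median-of-ratios scaling, zeros as missing, fits on the groups compared only, a replicate block, a header-date term, libraries of 1 header date only, and leaving out each library. All 73 member IDs matched GENCODE M21, where 71 are protein-coding. Promoters are from RefSeq, GRCm38.p6, and were not mixed with mm9 coordinates.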

Additional observations from a re-analysis of the deposited data

Results flagged for a closer look

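The time course differed between NFIA cells and control cells for 10 members, by a test of the interaction of NFIA with day (limma, Benjamini-Hochberg adjusted p under 0.05). That is 12.3% of members with a larger change in NFIA cells and 1.37% with a smaller one. Both lie below the shares of all genes given above. On the log2 scale the change with time was larger in NFIA cells by 0.91 for Ndufaf4, 0.86 for Sdha, 0.71 for Ndufv1, 0.70 for Ndufa4l2, 0.67 for Ndufa10, 0.62 for Ndufs1, 0.59 for Ndufb10, 0.55 for Atp5a1 and 0.52 for Atp5f1. It was smaller by −0.51 for Ndufs4, which at day 0 was already higher in NFIA cells. The call was lost in 9 of 21 alternatives for Ndufs4 and in 5 of 21 for Atp5f1. The response to forskolin differed for 1 member, Ndufaf4, with an interaction of 0.48 and the call lost in 14 of 21 alternatives. That is 1.37% of members, again below the share of all genes given above.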

How the results depend on the processing

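For 75 results on single members, 1135 alternative values were computed, of which 966 kept direction and side of the threshold, 168 were no longer called and 1 reversed: Ndufs1 with forskolin, NFIA against control cells, was −0.051 after quantile normalization. The causes of these shifts were not tested. The counts of called members below pool both directions. Shares of all genes under the same setting are given above for only some of them. Where no share is given, the counts do not show whether members moved more than all genes did. This also holds for the counts with 1 library left out. The numbers of members called, over 73, moved as follows. For NFIA against control cells at day 0 there were 1 with no filter, 7 after quantile normalization, 0 in a fit of the compared groups only, 12 with a replicate block, 10 with numbered libraries (the later header date) only and 12 with a date term. At day 7 there were 25 after quantile normalization, 22 after median-of-ratios scaling, 39 with the block, 49 with numbered libraries and 41 with the date term. With forskolin the block gave 46, numbered libraries 56 and the date term 46. For day 7 against day 0 in control cells, the compared groups only gave 21, the block 61, numbered libraries 62 and the date term 61. For forskolin against none in NFIA cells, quantile normalization gave 11, the block 11, numbered libraries 16 and the date term 11. The interaction with day gave 19 after quantile normalization, 18 after median-of-ratios scaling, 25 with the block, 40 with numbered libraries and 26 with the date term. The interaction with forskolin gave 0 with a pseudocount of 0.1, 0 with no filter, 3 after quantile normalization, 3 with the block, 6 with numbered libraries and 3 with the date term. For tissue labelled NFIA-KO against WT tissue, no filter gave 0 and the block 2.

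Leaving out 1 library at a time gave 0 to 2 members at day 0, 9 to 15 at day 7, 13 to 25 with forskolin, 33 to 49 with time in NFIA cells and 17 to 42 in control cells. It gave 0 to 1 for forskolin in NFIA cells and 0 to 0 in control cells, 8 to 14 for the interaction with day, 0 to 1 for that with forskolin, 0 to 3 in the tissue, and 60 to 69 and 68 to 70 for WT tissue against NFIA and control cells. The labels used here give no pairing by replicate number, and weak correlations cannot exclude one. Deviations of same-numbered tissue libraries correlated at −0.009 to 0.143, and differences between replicates 2 and 3 of the cell groups at −0.105 to 0.138. The cell libraries without a number, those of the earlier date, deviated together (0.185 to 0.444), so the block there acts as a term for header date.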
